A study of Mus musculus with 6 samples.

Results

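Bile acid synthesis, its control by the nuclear receptor FXR and by FGF signalling, and the main uptake and export of bile acids were followed through 10 genes in liver RNA from mice fed a high-fat diet. The genes were taken by name from the deposited expression table: the hydroxylase genes Cyp7a1, Cyp8b1, Cyp27a1 and Cyp7b1, the receptor genes Nr1h4 (FXR), Nr0b2 (SHP), Fgfr4 and Klb, and the transporter genes Abcb11 and Slc10a1. All 10 were found among 56534 rows with values, and all 10 were among the 11104 genes with a mean of at least 1 FPKM (fragments per kilobase, scaled to the mapped fragments of a library), which entered the test. LKO (3 libraries) was C57BL/6 mice with the genotype label CD36-/-, described in the series title as a knockout of CD36 limited to hepatocytes. CON (3 libraries) was wild-type C57BL/6 mice. Mice of both groups received a diet with 60% of its energy as fat for 16 weeks, and total RNA of the liver was sequenced. The labels name no sex, age, time of collection or Cre driver, and do not say that each library is a separate animal, so a p-value here reflects only how far these libraries differ, which may be partly technical. Values per library are listed in the order of replicates 1, 2 and 3.

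Bile acids are made from cholesterol in hepatocytes. In the classic pathway CYP7A1 adds the first hydroxyl group and sets the rate, and CYP8B1 later adds the hydroxyl that turns the product into cholic acid. In the alternative pathway CYP27A1 oxidises the cholesterol side chain and CYP7B1 hydroxylates the resulting oxysterol. Bile acids that return to the liver bind FXR, which induces SHP, a repressor of Cyp7a1 and Cyp8b1. They also bind FXR in the ileum, where the mouse hormone FGF15 is made. It acts on hepatocytes through FGFR4 and its co-receptor beta-Klotho, the product of Klb, and lowers Cyp7a1. NTCP, the product of Slc10a1, takes bile acids up from the blood, and BSEP, the product of Abcb11, pumps them into bile and is itself induced by FXR.

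Cd36, the deleted gene, was at 2.73, 3.70 and 10.2 FPKM in LKO, against 61.95, 26.5 and 19.7 FPKM in CON. Between 10614 and 11311 genes reached 1 FPKM in a library, and the depth in reads is unknown because the deposited unit is FPKM. Libraries differed in ways that touch all genes. The Mup genes, which encode the major urinary proteins of male mouse liver, made up 23.9% to 29.4% of all FPKM of an LKO library and 6.22% to 22.1% of that of a CON library. Deviations of a library from the mean of each gene went with gene length, with a Spearman rho across genes of -0.33 and -0.30 in LKO 1 and LKO 2, 0.21 in LKO 3 and 0.098 to 0.29 in CON, so LKO 3 stood with the CON libraries in this respect. The median log2 fold change of all tested genes, LKO over CON on the log2(FPKM + 1) scale, was -0.23, and it was 0.01 after median-ratio scaling, which divides each library by its median ratio to the mean library. With the length trend of each library removed, a step that also takes out the mean offset of each library, the median was -0.015. The fold changes below are to be read against these medians. On the deposited scale 1 of the 11104 genes passed an adjusted p of 0.05 (limma), a predicted gene outside the bile acid genes. Cd36 itself, with a log2 fold change of -2.50, did not pass (adjusted p = 0.163, limma). Not passing therefore does not show that a gene was unchanged. In bulk liver RNA, fewer cells of a type and less RNA per cell cannot be told apart.

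Klb, the FGF co-receptor gene, had the lowest mean in LKO relative to CON, at 33.2%, and was lower in every LKO library than in any CON library. Nr1h4, Slc10a1 and Cyp27a1 had the same order, at 64.3%, 60.4% and 76.6% of the CON mean, an order that 24.3% of all genes had as deposited. After median-ratio scaling the groups overlapped in these 3 genes and not in Klb. Nr0b2, Cyp7b1 and Abcb11 had higher means in LKO. The smallest fold change was that of Abcb11 as deposited and that of Cyp8b1 after median-ratio scaling. None of the 10 passed over all genes in the 6 libraries together. An unadjusted p under 0.05 (limma) was found for 3 of the 10, all lower, against 18.9% of all genes lower and 22.2% in either direction. The background was 0.00901% of genes lower and 0% higher at an adjusted p under 0.05 (limma). The adjusted p-values of the 10 genes ran from 0.175 to 0.776 (limma).

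**Figure D1:**
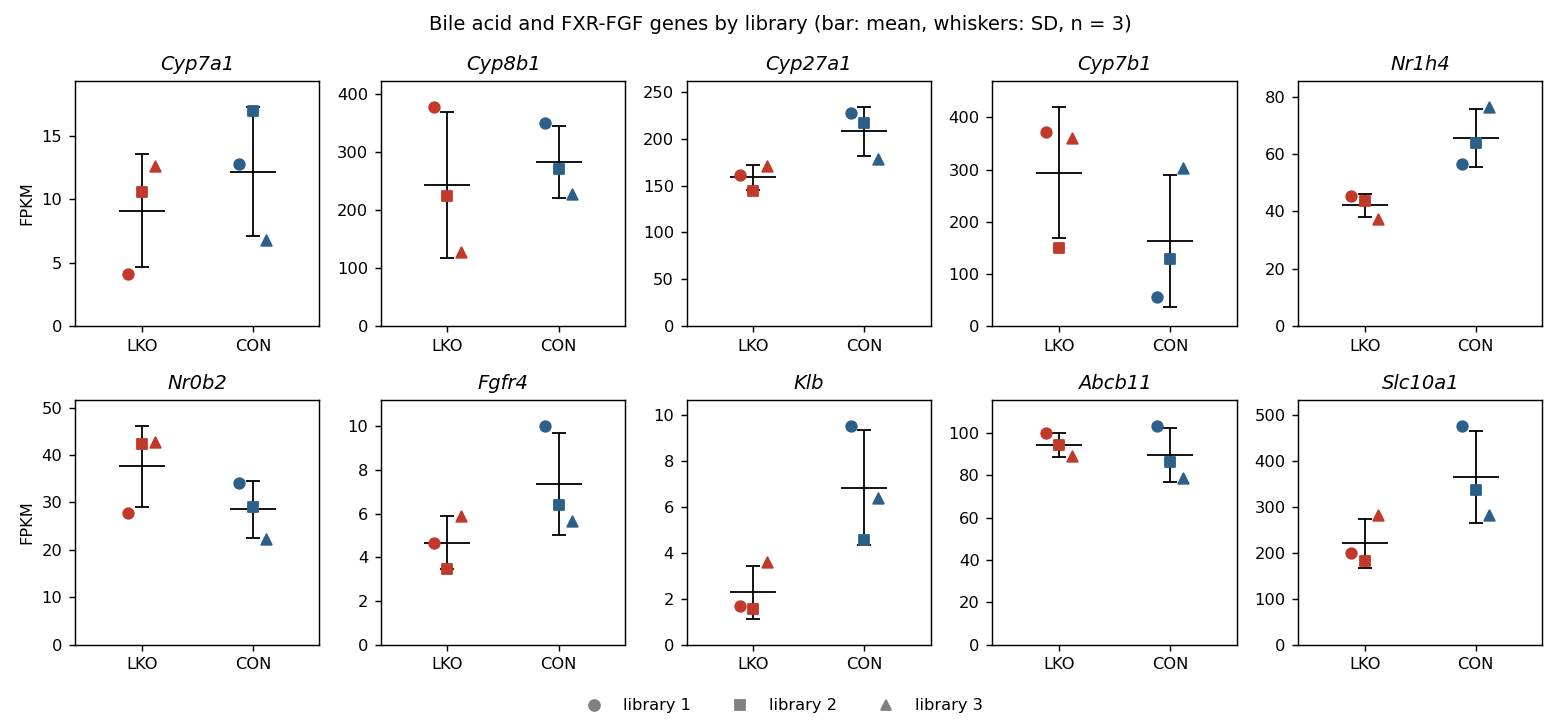
FPKM of each of the 10 genes on the vertical axis, with the LKO libraries on the left and the CON libraries on the right of each panel; symbols mark the library number, bars the mean and whiskers the SD (n = 3). The groups are apart in Klb, Nr1h4, Slc10a1 and Cyp27a1. Cyp7a1 and Cyp7b1 spread widely within both groups, and Cyp8b1 and Klb within LKO.

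Of the 4 hydroxylase genes, Cyp7a1 was the least abundant. Cyp7a1 (ENSMUSG00000028240, chromosome 4), the rate-limiting enzyme of the classic pathway, was at 4.13, 10.6 and 12.6 FPKM in LKO and at 12.8, 16.9 and 6.80 FPKM in CON. The groups overlapped, and the lowest value was that of LKO 1. Its means were 9.10 ± 4.42 FPKM in LKO and 12.2 ± 5.08 FPKM in CON (SD, n = 3 each). The log2 fold change was -0.42 (SE 0.43, adjusted p = 0.550, limma). It was -0.15 after median-ratio scaling and 0.013 without LKO 1.

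Cyp8b1 (ENSMUSG00000050445, chromosome 9), the sterol 12-alpha-hydroxylase that decides how much cholic acid is made, was at 378, 224 and 128 FPKM in the LKO libraries and 351, 270.4 and 227 FPKM in the CON libraries. The LKO libraries held both the highest and the lowest of the 6 values. LKO 1, which had the least Cyp7a1, had the most Cyp8b1. The log2 fold change was -0.33 (SE 0.38, adjusted p = 0.593, limma) and was -0.03 after median-ratio scaling and 0.064 without LKO 3.

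Cyp27a1 (ENSMUSG00000026170, chromosome 1), the mitochondrial sterol 27-hydroxylase, was at 162, 145 and 171 FPKM in LKO and 228, 217 and 179 FPKM in CON. All LKO values were below all CON values, with LKO 3 and CON 3 closest to each other. The means were 159 ± 13.3 and 208 ± 25.8 FPKM in LKO and CON (SD, n = 3 each). The log2 fold change was -0.38 (SE 0.18, adjusted p = 0.246, limma). After median-ratio scaling it was -0.08 and the groups overlapped.

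Cyp7b1 (ENSMUSG00000039519, chromosome 3), the oxysterol 7-alpha-hydroxylase, whose expression is higher in male than in female mouse liver, was at 372, 149 and 361 FPKM in LKO. It was at 56.5, 129 and 304 FPKM in CON. CON 3 lay above LKO 2, so the groups overlapped, and the CON values alone spanned a wide range. The log2 fold change of 1.05 (SE 0.61) was the largest positive one of the 10 genes and did not pass (adjusted p = 0.311, limma). It was 0.46 without CON 1 and 1.66 without CON 3. The Mup genes, also more expressed in males, made up 29.4%, 28.9% and 23.9% of all FPKM in LKO, against 6.22%, 15.6% and 22.1% in CON. Within CON the order of the libraries was the same for Cyp7b1 and for the Mup share. LKO 2 departed from it, with a high Mup share beside a low Cyp7b1 value. The part of the Mup share in the Cyp7b1 result was not tested, and it was set beside Cyp7b1 after the values were seen.

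**Figure D2:**
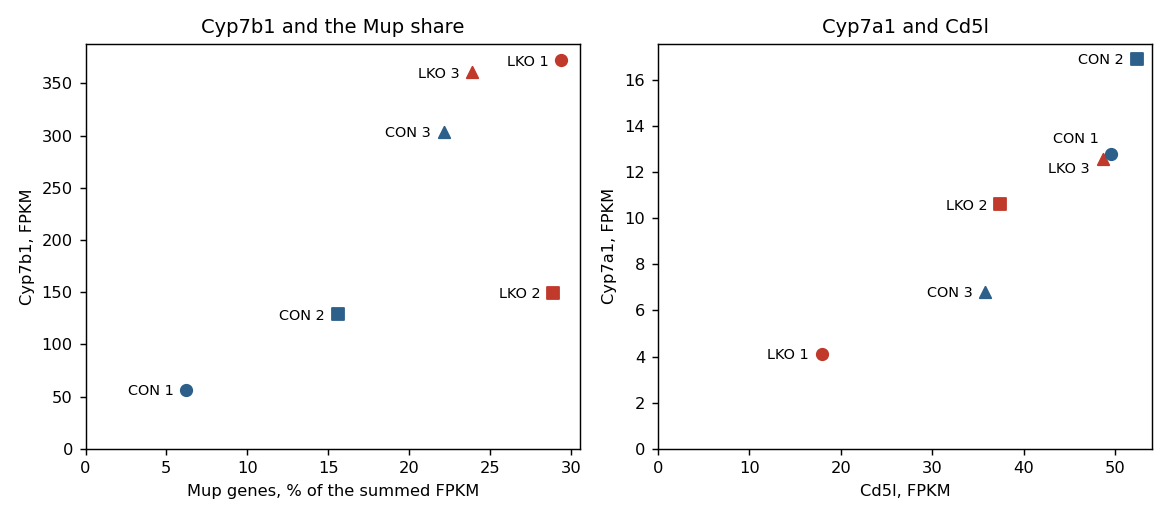
FPKM of Cyp7b1 against the share of the Mup genes in the summed FPKM (left) and of Cyp7a1 against the macrophage gene Cd5l (right), 1 point per library, LKO in red and CON in blue. CON 1 has the least of both Cyp7b1 (56.5 FPKM) and Mup (6.22%), and LKO 1 the least of both Cyp7a1 (4.13 FPKM) and Cd5l (17.9 FPKM). Cd5l is shown because it was the closest in pattern to Cyp7a1 among 6044 candidate genes, so the likeness follows from that choice.

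Added together, the 4 hydroxylase genes had 915, 529 and 673 FPKM in LKO, and 648, 633 and 717 FPKM in CON. Cyp7a1 made up 0.451% to 2.0% of that sum in LKO and 0.949% to 2.67% in CON. Cyp7b1 made up 40.6%, 28.2% and 53.6% in the LKO libraries, against 8.72%, 20.3% and 42.4% in the CON libraries. Cyp8b1 held 41.2%, 42.4% and 19.1% in LKO, against 54.2%, 42.7% and 31.7% in CON. FPKM is per length, so these shares compare levels between genes, and all of them overlapped between the groups.

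The mean of Nr1h4 (FXR) was lower in LKO and that of Nr0b2 (SHP) higher. Neither gene passed over all genes, and on neither scale were the groups apart in both genes. Nr1h4 (ENSMUSG00000047638, chromosome 10), which encodes the bile acid receptor FXR, was at 45.4, 43.5 and 37.4 FPKM in LKO and 56.45, 63.8 and 76.4 FPKM in CON. The groups did not overlap, and the spread within LKO was small. The means were 42.1 ± 4.16 and 65.6 ± 10.1 FPKM in LKO and CON (SD, n = 3 each), with a log2 fold change of -0.62 (SE 0.18, unadjusted p = 0.00974, adjusted p = 0.179, limma). After median-ratio scaling it was -0.33 and the groups overlapped.

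Nr0b2 (ENSMUSG00000037583, chromosome 4), which encodes SHP, the repressor that FXR induces, was at 27.8, 42.4 and 42.8 FPKM in LKO and 34.15, 29.15 and 22.3 FPKM in CON. Only LKO 1 lay within the CON range. The log2 fold change, 0.38 (SE 0.24, adjusted p = 0.342, limma), became 0.67 after median-ratio scaling (adjusted p = 0.261, limma), where all 3 LKO libraries lay above all 3 CON libraries. It was 0.22 without CON 3, and 0.19 without LKO 3 with the length trend removed.

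The promoters of Nr0b2, of Abcb11, another gene that FXR induces, and of Nr1h4 itself are shown because they are the receptor and the genes among the 10 that it is best known to induce. The windows run from 250 bases before to 50 bases after the annotated start, 5′ to 3′ on the strand of the gene, from RefSeq on GRCm38.p6, a later build than the mm9 of the submitters' processing notes. Of the 10 genes, 8 had such a window, and Cyp7a1 and Cyp7b1 did not. Capitals mark letters found in a search of both strands for the nuclear receptor half-site AGGTCA, the E-box CACGTG, the TATA box TATAAA, the D-box TTATGTAA (the site of DBP), the LRH-1 site CAAGGTCA, which contains the half-site, and the inverted repeat AGGTCANTGACCT (IR-1, the arrangement FXR prefers), which contains the half-site on each strand. IR-1 matches are marked up to 2 mismatches in 12 letters.
Abcb11 promoter (chr2:69342567-69342866, minus strand): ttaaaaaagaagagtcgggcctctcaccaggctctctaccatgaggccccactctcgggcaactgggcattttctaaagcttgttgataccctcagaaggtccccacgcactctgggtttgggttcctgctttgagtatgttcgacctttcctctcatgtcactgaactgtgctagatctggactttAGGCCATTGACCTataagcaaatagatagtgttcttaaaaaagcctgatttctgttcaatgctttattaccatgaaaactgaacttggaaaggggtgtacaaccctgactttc
Nr0b2 promoter (chr4:133553126-133553425, plus strand): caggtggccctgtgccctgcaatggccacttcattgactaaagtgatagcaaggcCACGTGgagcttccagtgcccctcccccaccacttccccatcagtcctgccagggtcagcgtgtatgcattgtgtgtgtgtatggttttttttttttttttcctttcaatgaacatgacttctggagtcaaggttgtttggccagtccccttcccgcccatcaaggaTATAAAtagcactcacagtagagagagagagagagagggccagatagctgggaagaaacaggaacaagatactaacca
Nr1h4 promoter (chr10:89506609-89506908, minus strand): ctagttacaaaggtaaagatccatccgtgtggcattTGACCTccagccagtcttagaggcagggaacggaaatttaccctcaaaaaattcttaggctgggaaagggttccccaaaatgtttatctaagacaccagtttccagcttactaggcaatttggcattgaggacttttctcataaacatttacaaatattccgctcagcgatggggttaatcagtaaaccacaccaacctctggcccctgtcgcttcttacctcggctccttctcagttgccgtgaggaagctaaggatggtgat
The Abcb11 window held AGGCCATTGACCT, an IR-1 with 1 mismatch that begins at position -63 from the start. Such a match or a better one was in 0.0822% of the 32851 windows of all genes. The Nr0b2 window held an E-box and a TATA box, beginning at positions -195 and -28, which 7.15% and 13.6% of all windows also held. Its closest IR-1 matches had 4 mismatches, and 56.4% of all windows had a match with 4 or fewer. In the Nr1h4 window 1 half-site began at position -214, a match present in 16.3% of all windows. None of the 8 genes' windows held the full LRH-1 site or the D-box, which 1.56% and 0.938% of all windows held. Cyp7a1 and Cyp7b1, which had no window, were not searched for any site. A match describes the letters of the window and does not show binding. Sites outside the windows were not searched, so a missing match does not show that a gene lacks such a site.

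Both genes of the FGF receptor pair had lower means in LKO, the co-receptor most. Klb (ENSMUSG00000029195, chromosome 5), which encodes beta-Klotho and allows FGFR4 to bind FGF15, was at 1.68, 1.55 and 3.59 FPKM in LKO, against 9.55, 4.57 and 6.41 FPKM in CON. All LKO libraries lay below all CON libraries, with LKO 3 closest to them. The means were 2.27 ± 1.14 FPKM in LKO and 6.84 ± 2.52 FPKM in CON (SD, n = 3 each), a 3.01-fold difference. With SE 0.32 and an unadjusted p of 0.00414, the log2 fold change of -1.27 did not pass over all genes (adjusted p = 0.175, limma), and only 1.36% of the tested genes had a lower value. The groups also did not overlap after median-ratio scaling, with a log2 fold change of -1.04 (adjusted p = 0.258, limma). Without LKO 3, the adjusted p of Klb was 0.0200 on the deposited scale, 0.0262 with median-ratio scaling and 0.0392 with the length trend of each library removed (limma). In those 3 fits without LKO 3, 19%, 8.26% and 5.92% of all genes were called lower and 4.6%, 11.3% and 6.2% higher. The last 2 of these fits were chosen after the data were seen. Leaving out any other single library gave Klb an adjusted p of 0.246 to 0.486 on the deposited scale (limma). LKO 3 also had the most Cd36 of the LKO libraries. With array weights, which gave LKO 3 the least weight, Klb (adjusted p = 0.0143), Nr1h4 (0.0246) and Slc10a1 (0.0348) passed (limma), where 21.6% of all genes were called lower and 6.02% higher. Over the 16 alternative settings in which Klb was tested, its log2 fold change ran from -1.59 to -0.96 and its adjusted p from 0.0143 to 0.486 (limma).

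Fgfr4 (ENSMUSG00000005320, chromosome 13), the receptor itself, was at 4.65, 3.46 and 5.90 FPKM in LKO and 10.02, 6.38 and 5.66 FPKM in CON. LKO 3 lay above CON 3, so the groups overlapped, with a log2 fold change of -0.55 (SE 0.26, adjusted p = 0.248, limma). It was -0.29 after median-ratio scaling, -0.25 with the length trend removed and -0.33 without CON 1. With the length trend removed, the median of all tested genes was -0.015, against -0.23 as deposited. Fgf15, its ligand in mice, was listed at 0 FPKM in all 6 libraries, as were the ileal genes Fabp6 and Cdx2.
The Klb promoter is shown because Klb had the most negative log2 fold change of the 10 genes on both scales. It held none of the letters searched for, and the absence says nothing about any factor.
Klb promoter (chr5:65348161-65348460, plus strand): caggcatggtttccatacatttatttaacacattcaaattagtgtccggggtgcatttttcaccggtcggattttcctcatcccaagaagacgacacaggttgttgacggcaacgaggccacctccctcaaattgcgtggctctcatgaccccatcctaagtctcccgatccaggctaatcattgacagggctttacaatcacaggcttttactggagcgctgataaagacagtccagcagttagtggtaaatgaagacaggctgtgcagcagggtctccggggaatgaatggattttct

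The importer gene had a lower mean in LKO and the exporter gene did not. Slc10a1 (ENSMUSG00000021135, chromosome 12), which encodes the sodium-dependent importer NTCP, was at 198, 181 and 281 FPKM in LKO, against 476, 335 and 282 FPKM in CON. The groups did not overlap, but LKO 3 and CON 3 were nearly equal. The means were 220.1 ± 53.1 and 364 ± 99.98 FPKM in LKO and CON (SD, n = 3 each). The log2 fold change was -0.72 (SE 0.26, unadjusted p = 0.0263, adjusted p = 0.197, limma). After median-ratio scaling it was -0.42 and the groups overlapped. Without LKO 3 the adjusted p was 0.0399 on the deposited scale, 0.139 with median-ratio scaling and 0.0700 with the length trend removed (limma). Abcb11 (ENSMUSG00000027048, chromosome 2), the canalicular bile salt pump BSEP, was at 100.15, 94.3 and 88.9 FPKM in LKO and 103, 86.4 and 78.9 FPKM in CON. It had the smallest spread within LKO of the 10 genes, with an SD of 5.94% of the mean. Its log2 fold change was 0.08 (SE 0.17, adjusted p = 0.776, limma). After median-ratio scaling it was 0.38 (adjusted p = 0.290, limma), and the LKO libraries then lay above the CON libraries.

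As a list, 7 of the 10 genes had a negative and 3 a positive log2 fold change, where 71.6% and 28.4% of all genes did, with a median of -0.40 against -0.23 over all tested genes. On the median-ratio scale there were 7 negative and 3 positive values, against 48.9% and 51.1% of all genes, and the medians were -0.11 and 0.01. The groups did not overlap, lower in LKO, for 4 of the 10 genes, where 24.3% of all genes were so ordered. None was ordered the other way, against 3.92% of all genes, or 28.3% in either direction. After median-ratio scaling 1 gene (Klb) was so ordered lower and 2 (Nr0b2 and Abcb11) higher, against 11.1% and 12.3% of all genes, or 23.4% in either direction. At an unadjusted p under 0.05 (limma) 3 were lower, against 18.9% of all genes on the deposited scale, and 0 higher, against 3.25%. After median-ratio scaling these counts were 1 lower and 1 higher, against 7.96% and 10.2%.

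**Figure D3:**
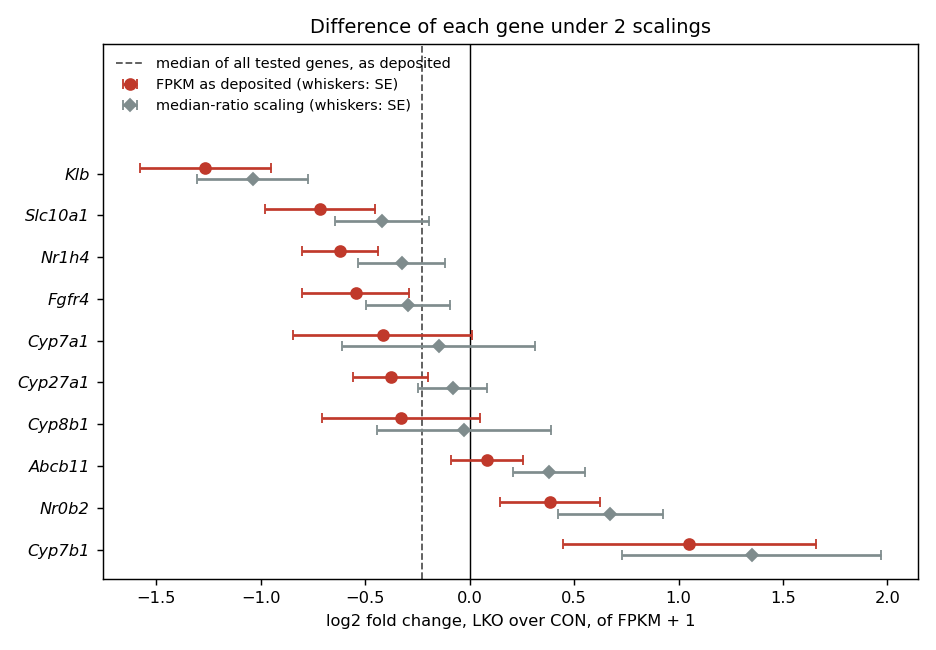
Log2 fold change of FPKM + 1, LKO over CON, on the horizontal axis for each of the 10 genes, as deposited (red) and after median-ratio scaling (grey), with moderated SE as whiskers; the dashed line is the median of all tested genes as deposited (-0.23). Klb is the lowest under both scalings (-1.27 and -1.04) and Cyp7b1 the highest (1.05 and 1.35), and every gene moves up under median-ratio scaling.

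A ratio of 2 genes within a library does not change when the whole library is multiplied by 1 factor, but it does depend on a trend with gene length. Of 8 ratios computed, 4 did not overlap between the groups. The share of other gene pairs that do not overlap was not computed, and 28.3% of single genes did not overlap as deposited. These ratios are not independent, as Nr0b2 enters both Nr0b2 per Nr1h4 and Cyp7a1 per Nr0b2. Their genes were chosen with earlier results of these data known. Klb per Fgfr4, the co-receptor over its receptor, was 0.361, 0.448 and 0.608 in LKO, against 0.953, 0.716 and 1.13 in CON. The co-receptor thus had fewer FPKM per FPKM of receptor in each LKO library than in any CON library. Nr0b2 per Nr1h4, SHP over FXR, was 0.613, 0.974 and 1.14 in LKO and 0.605, 0.457 and 0.292 in CON. LKO 1 and CON 1 were close to each other in this ratio.

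Abcb11 per Slc10a1, export over import, was 0.505, 0.520 and 0.317 in LKO and 0.217, 0.258 and 0.280 in CON. Cyp7a1 per Nr0b2, the rate-limiting enzyme over its repressor, was 0.148, 0.250 and 0.294 in LKO and 0.374, 0.580 and 0.305 in CON. In both, LKO 3 and CON 3 were the nearest libraries of the 2 groups. The differences of the mean log2 ratio were -0.99 for Klb per Fgfr4, 1.03 for Nr0b2 per Nr1h4, 0.80 for Abcb11 per Slc10a1 and -0.87 for Cyp7a1 per Nr0b2. Each had an exact two-sided permutation p of 0.1, the smallest that 3 libraries against 3 allow, and 0.2 after adjustment over the 8 ratios. With the length trend removed, the difference of the fitted fold changes was -0.44 for Cyp7a1 per Nr0b2, against -0.80 with the trend left in. Without the trend it was -0.71 for Klb per Fgfr4, 0.82 for Nr0b2 per Nr1h4 and 1.03 for Abcb11 per Slc10a1, against -0.72, 1.003 and 0.80 with it. The other ratios overlapped between the groups. Cyp8b1 per Cyp7a1, which relates cholic acid formation to the first step, was 91.4 in LKO 1 and 10.2 to 21.2 in the other LKO libraries, against 16.0 to 33.5 in CON (exact permutation p = 0.9). Cyp7b1 per Cyp27a1, the second over the first step of the alternative pathway, was 1.03 to 2.30 in LKO and 0.248 to 1.70 in CON (exact permutation p = 0.2).

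**Figure D4:**
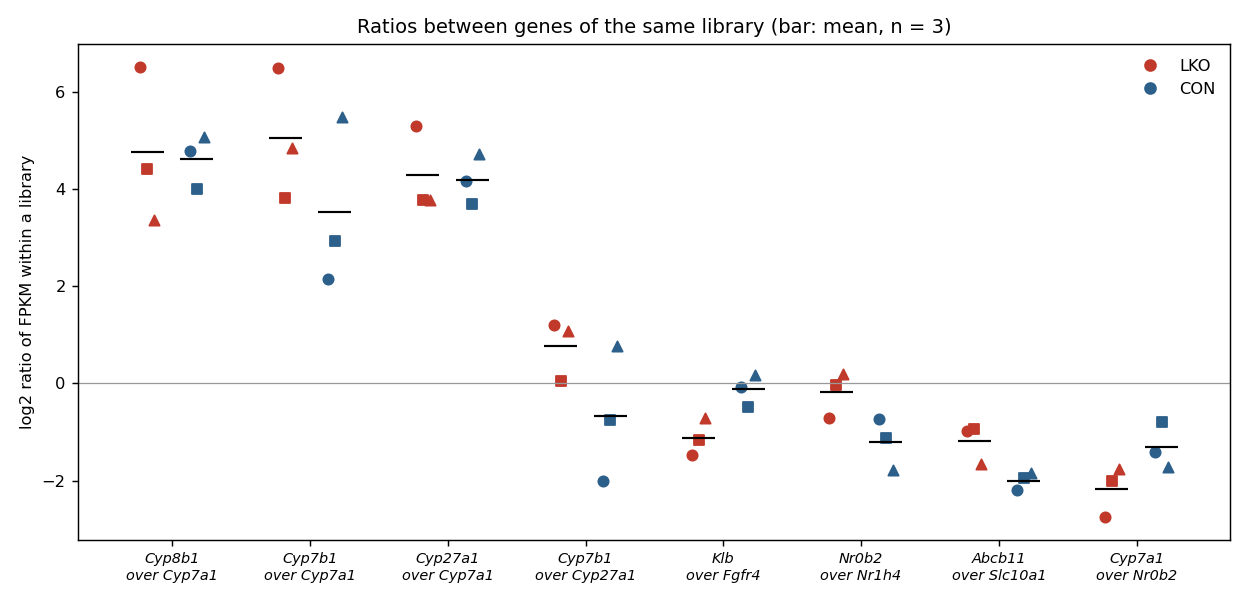
Log2 ratio of the FPKM of 2 genes in the same library for the 8 pairs on the horizontal axis, LKO (red, left) beside CON (blue, right), with the mean as a bar and 1 symbol per library number. The last 4 pairs do not overlap between the groups, and the exact permutation p of each is 0.1.

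Negative log2 fold changes were found in 17 of 19 tested genes among the remaining genes of bile acid synthesis, against 71.6% of all genes. Of 22 enzyme and cholesterol carrier genes, 19 were tested, 0 passed in either direction over all genes, and 9 were lower at an unadjusted p under 0.05 (limma), against 18.9% of all genes. Their median log2 fold change was -0.50, and -0.20 after median-ratio scaling, where 3 were lower at an unadjusted p under 0.05, against 7.96% of all genes. Stard4, a cytosolic cholesterol carrier, was at 2.69, 3.88 and 5.38 FPKM in LKO and 12.2, 9.82 and 7.73 FPKM in CON. Slc27a5, the bile acyl-CoA synthetase that prepares bile acids for conjugation, was at 217, 175 and 294 FPKM in LKO and 455, 408 and 329 FPKM in CON. The groups did not overlap in either gene as deposited, lower in LKO, an order that 24.3% of all genes had. After median-ratio scaling they overlapped in Slc27a5 and not in Stard4. Cyp39a1, which hydroxylates 24-hydroxycholesterol, was at 2.15, 1.51 and 3.35 FPKM in LKO and 6.93, 4.32 and 3.89 FPKM in CON, and Stard5 had a log2 fold change of -0.59. Adjusted p-values of these 4 genes were 0.165 to 0.186 (limma).

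Among 18 other transporters of bile acids and biliary lipids, 14 were tested, 0 passed over all genes and 8 were lower at an unadjusted p under 0.05 (limma), against 18.9% of all genes. The median was -0.51, and -0.22 after median-ratio scaling, where 6 were lower at that p, against 7.96% of all genes. Slco1b2, an organic anion transporter that also imports bile acids, was at 159, 126 and 260.2 FPKM in LKO and 395, 298 and 343 FPKM in CON. Abcg8, a subunit of the sterol exporter into bile, was at 8.86, 11.7 and 13.99 FPKM in LKO and 32.8, 18 and 20.6 FPKM in CON. Slco2b1, another organic anion transporter, had a log2 fold change of -0.78. The adjusted p-value of each of these 3 genes was 0.179 (limma). Slc10a2, the importer of ileum and bile duct, was at 1.94, 2.14 and 21.1 FPKM in LKO and 4.90, 11.6 and 4.22 FPKM in CON, with the highest value in LKO 3. Slc51b, a subunit of the basolateral exporter that FXR induces, was at or below 0.30 FPKM in all 6 libraries and was not tested. Slc51a, the partner subunit, named after its values were seen, was at 1.58, 2.31 and 0.26 FPKM in LKO and 0.15, 0.22 and 0.21 FPKM in CON. Its mean over the 6 libraries was below 1 FPKM, so it was not tested either.

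Of 24 other transcriptional regulators of bile acid genes, 22 were tested, with 0 past the threshold. At an unadjusted p under 0.05 (limma) 5 were lower, against 18.9% of all genes, and 3 after median-ratio scaling, against 7.96%. Their median was -0.34, and -0.10 after that scaling. Nr5a2, which encodes LRH-1, an activator of Cyp7a1 and Cyp8b1, was at 6.21, 5.38 and 8.94 FPKM in LKO and 15.4, 10.7 and 11.1 FPKM in CON. Nr1i3, the xenobiotic receptor CAR, was at 74.5, 88.7 and 67.5 FPKM in LKO and 136, 122 and 122 FPKM in CON. Both were lower in every LKO library than in any CON library, with adjusted p-values of 0.179 and 0.172 (limma). As deposited, 24.3% of all genes had that order. After median-ratio scaling the groups overlapped in Nr1i3 and not in Nr5a2. Zfp36l1, an RNA-binding protein that promotes decay of Cyp7a1 mRNA in mice, had a log2 fold change of -0.96, and Prox1, a corepressor, one of -0.89. Rxra, the dimer partner of FXR, was at 55.2, 52.5 and 140.4 FPKM in LKO and 143, 119 and 134 FPKM in CON. Hnf4a, an activator of Cyp7a1 and Cyp8b1, was at 73.3, 71.4 and 201.5 FPKM in LKO and 129, 175 and 161 FPKM in CON. In both genes LKO 1 and LKO 2 were below all CON libraries and LKO 3 was within or above them.

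Of 27 FGF ligands, other receptors and signalling parts, 22 were tested, 0 passed, and 8 were lower at an unadjusted p under 0.05 (limma), against 18.9% of all genes. Their median was -0.51, and -0.26 after median-ratio scaling, where 5 were lower and 1 higher at that p, against 7.96% and 10.2% of all genes. Fgf1 was at 20.8, 22.4 and 34.5 FPKM in LKO and 46.4, 49.3 and 48.1 FPKM in CON. Gab1, an adaptor of receptor tyrosine kinases, Spry4, a feedback inhibitor of the pathway, and the decoy-like receptor gene Fgfrl1 had log2 fold changes of -0.64, -0.70 and -0.95. Adjusted p-values of these 4 genes were 0.172 to 0.179 (limma). Of 14 listed FXR-responsive genes, some known as such only from human hepatocytes, 12 were tested and 0 passed, with 3 lower at an unadjusted p under 0.05 (limma), against 18.9% of all genes. Their median was -0.44, and -0.14 after median-ratio scaling, where 3 were lower at that p, against 7.96% of all genes. As deposited, 7 of the 12 lay below the median of all genes. Positive values were found in 3 genes, Osgin1 (0.32), Fetub (0.30) and Apoc2 (0.16), named after their values were seen. Sdc1, a heparan sulfate proteoglycan of the hepatocyte surface, was at 34.2, 27.0 and 37.6 FPKM in LKO and 89.5, 71.7 and 58.45 FPKM in CON (log2 fold change -1.12, adjusted p = 0.163, limma). Cyp4f14 and Slco1a4 followed with -0.88 and -1.59, and Fga, a fibrinogen chain, was at -1.02.

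**Figure D5:**
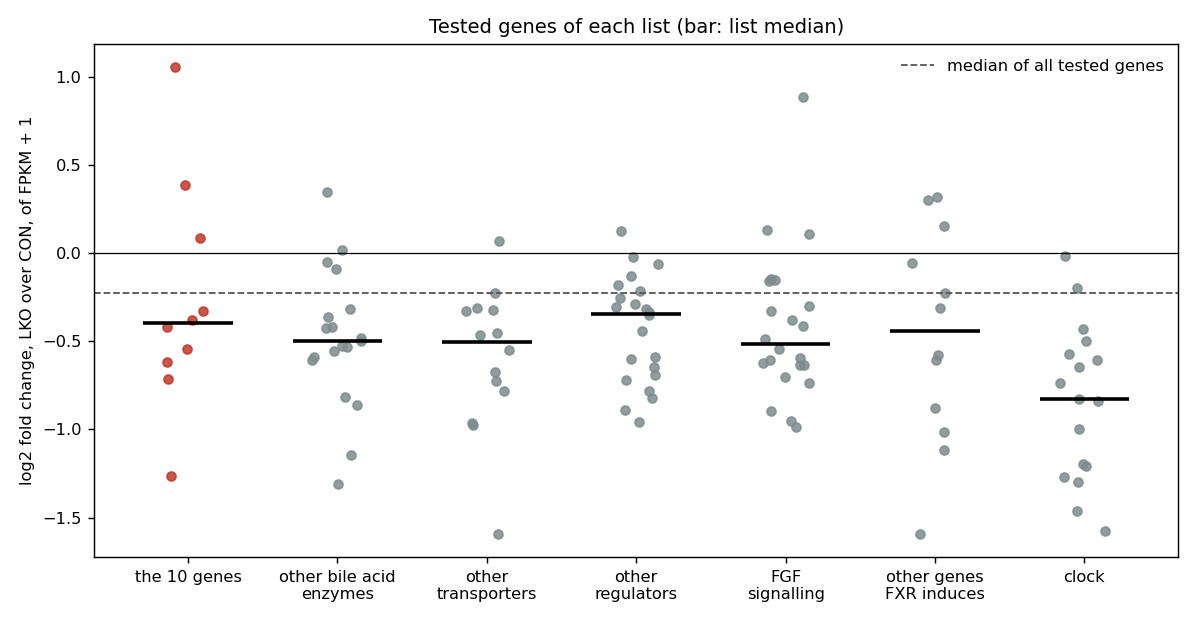
Log2 fold change of FPKM + 1, LKO over CON, of every tested gene (points) in each list, with the list median as a bar and the median of all tested genes (-0.23) as a dashed line; horizontal scatter only separates points. The bars of the bile acid and FGF lists lie between -0.34 and -0.51, and that of the clock genes at -0.83.

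Cyp7a1 is a rhythmic gene in mouse liver, under the control of clock factors that include DBP and REV-ERB alpha, the product of Nr1d1. Of 17 tested clock genes, 0 passed and 11 were lower at an unadjusted p under 0.05 (limma), against 18.9% of all genes, and 5 after median-ratio scaling, against 7.96%. Their median log2 fold change was -0.83, and -0.61 after that scaling. Set against the mean of CON, the median clock gene stood at -1.27, -0.65 and -0.62 on the log2 scale in the LKO libraries. Dbp was at 4.98, 61.6 and 28.5 FPKM in LKO and 55.1, 54.35 and 93.6 FPKM in CON, and Nr1d1 at 13.6, 21.95 and 41.65 FPKM in LKO and 47.3, 24.9 and 36.4 FPKM in CON. LKO 1 had the lowest Dbp, the lowest Nr1d1 and the lowest Cyp7a1, while CON 3 had the highest Dbp and the lowest Cyp7a1 of its group. Hlf, Cry2 and Cry1 were among the genes with the smallest p-values of the list, with log2 fold changes of -1.46, -1.21 and -0.74. The part of clock phase in the Cyp7a1 values was not tested.

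Likeness of pattern was measured as the root mean square difference of centred log2(FPKM + 1) over the 6 libraries after median-ratio scaling, against 6044 candidate genes for Cyp7a1 and 6045 for Klb. Closest to Cyp7a1 were Cd5l and Lyz2, which are expressed in macrophages, and the DNA-binding protein gene Arid5b, with differences of 0.194, 0.197 and 0.241, where the median candidate had 0.645. Cd5l was at 17.9, 37.4 and 48.6 FPKM in LKO and 49.6, 52.3 and 35.8 FPKM in CON. Closest to Klb were Acly, the ATP citrate lyase of lipid synthesis, the phosphatase gene Ptprf and the sialic acid esterase gene Siae, with 0.125, 0.140 and 0.143 against a median of 0.659. Acly was at 3.76, 3.69 and 8.34 FPKM in LKO and 20.5, 12.05 and 12.7 FPKM in CON. These likenesses describe 6 libraries that share the group difference and the depth and composition of each library. The genes were picked as the closest of all candidates in these same libraries, so their likeness is no test of a link.

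Markers of the tissue and of other cell types were checked beside these results. The 9 hepatocyte markers summed to 45936 to 55771 FPKM in LKO and 50774 to 71750 FPKM in CON, so hepatocyte RNA was plain in every library. Most of that sum was Alb and Apoa1, with log2 fold changes of -0.70 and 0.72, and the list median was -0.59, and -0.29 after median-ratio scaling. Pericentral markers, of the zone where Cyp7a1 is more expressed in mouse liver, summed to 6481 to 8055 FPKM in LKO and 9047 to 11739 FPKM in CON. That sum is mostly Cyp2e1, which had a log2 fold change of -0.64 (adjusted p = 0.197, limma), and the list median of the 10 tested of 11 genes was -0.32, and -0.07 after median-ratio scaling. Oat, Rgn and Slc1a2 had -0.48, -0.45 and -0.50, and 2 of the 10 were lower at an unadjusted p under 0.05 (limma), against 18.9% of all genes. On the median-ratio scale there were 0 lower and 1 higher at that p, against 7.96% and 10.2%. The higher one was Cyp1a2, named after its values were seen, with 0.36 as deposited and 0.66 after scaling. Periportal markers (9 of 9 tested) had a median of -0.43 (-0.13 after scaling), with 0 at that unadjusted p. The 8 cholangiocyte markers summed to 34.2 to 75.0 FPKM in LKO and 29.5 to 51.6 FPKM in CON. Most of that was Spp1, and the defining keratin gene Krt19 was at 0.51 to 2.31 FPKM in LKO and 0.63 to 1.26 FPKM in CON. The median of the 3 cholangiocyte markers tested was 0.16, and that of the 8 stellate markers 0.10. Kupffer cell markers summed to 126 to 248 and 155 to 229 FPKM in LKO and CON, sinusoidal endothelial markers to 44.3 to 64.1 and 35.0 to 103, and stellate cell markers to 84.8 to 120.4 and 88.5 to 98.2. All 3 ranges overlapped, with LKO 1 lowest in Kupffer markers, and the part of these cells in the bile acid values was not tested.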

How the data were processed

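The authors deposited 1 table of FPKM, with 2 decimals, for the 6 libraries. HISAT2 and StringTie with build mm9 were used, per the submitters' processing notes. No source used here gives their versions, options, annotation or strand setting. FPKM depends on what else is in a library, so abundant transcripts such as those of the Mup genes can lower all other values. In an alternative setting the mitochondrial and Mup genes were removed and the libraries rescaled. The median log2 fold change of all tested genes was then -0.25, against -0.23 as deposited, so the negative median remained. The cause of that median was not tested. A gene length is also given, per the file headers. Of 56536 lines, 2 continued an annotation text and were dropped. FPKM times length in short genes did not fall on whole reads, so no count model was fitted and the depth is unknown.

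Genes with a mean of at least 1 FPKM were tested as log2(FPKM + 1) with limma 3.58.1 in R 4.3.3 (lmFit, eBayes with trend, two-sided, group only, all 6 libraries). P-values were adjusted by Benjamini-Hochberg over all 11104 genes, threshold 0.05. The fold change of low genes is understated on this scale. SE is moderated, SD is over 3 libraries. Ratios were tested with scipy 1.17.1. The steps were tested on simulated data. The genes and the 14 other lists were chosen with earlier results of these data known. Named are the 10 genes, Cd36, up to 4 genes of each other list with the smallest unadjusted p, Fgf15, Slc10a2, Slc51b, Nr5a2, Hnf4a, Rxra, Dbp and Nr1d1, and the 3 genes most like Cyp7a1 and Klb in pattern (mean of at least 5 FPKM). Some genes that this rule names are not reported here. Chromosomes come from GENCODE M21 by gene identifier. Alternatives were other pseudocounts, filters and scalings, a length trend, array weights, a replicate block and each library left out.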

Additional observations from a re-analysis of the deposited data

How the results depend on the processing

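None of the 10 genes passed in the 6 libraries together, or with a pseudocount of 0.1, either other filter, median-ratio scaling, quantile normalization, removal of the mitochondrial and Mup genes with rescaling, the length trend removed or the replicate block (limma). Array weights, estimated gene by gene because the default estimate did not converge, gave LKO 1 a weight of 2.75 and LKO 3 one of 0.283. They called 3 of the 10 genes lower (Klb, Nr1h4 and Slc10a1), beside 669 higher and 2403 lower over all genes. Leaving out each library in turn called 0 to 2 of the 10 lower, the 2 (Klb and Slc10a1) without LKO 3, beside 0 to 511 genes higher and 0 to 2115 lower over all genes. Without LKO 3, 1 of the 10 (Klb) was called with median-ratio scaling, beside 1259 higher and 917 lower, and 1 (Klb) with the length trend removed, beside 688 higher and 657 lower. These last 2 settings were chosen after seeing the data. Over all genes 1 was lower as reported, and 0 with a pseudocount of 0.1, no filter, a filter at 5 FPKM, the length trend removed or the replicate block.

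The median of the 10 genes, -0.40, was -0.11 with median-ratio scaling, -0.27 with quantile normalization, -0.22 with the length trend removed, and -0.12 and -0.29 without LKO 3 under median-ratio scaling and length trend removal. Leaving out each library gave -0.49 to -0.32. Minus the median of all genes it was -0.17, with -0.37 under no filter and -0.21 with the length trend removed. That difference was -0.27 without LKO 3 with the length trend removed, and -0.28 to -0.0781 over the libraries left out. Cyp8b1 turned positive with array weights (0.30) and without LKO 3 (0.064, 0.44 with median-ratio scaling, 0.21 with the length trend removed). Over the libraries left out, Cyp8b1 ran from -0.71 to 0.064 and Cyp7a1 from -0.75 to 0.013, the last without LKO 1, and Abcb11 was -0.00287 without CON 3. Cyp8b1 per Cyp7a1 turned to -0.74 without LKO 1 and -0.17 without CON 2, and Cyp27a1 per Cyp7a1 to -0.42 and -0.16. Leaving out each library gave -0.74 to 0.84 for the first ratio and -0.42 to 0.36 for the second. The causes were not tested. Same-numbered LKO and CON libraries had correlations of -0.046, 0.17 and 0.070 in their deviations from the group means, so the numbers were not treated as pairs. With the replicate block the adjusted p of Klb was 0.190 (limma) and 0 of the 10 genes passed. The depth in reads is unknown, and genes with a mean below 1 FPKM, such as Slc51a and Slc51b, were too low to be tested. Klb, with a mean under 5 FPKM, had no value under that filter.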
